A study of Arabidopsis thaliana with 18 samples.

Results

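Leaves of wild-type Arabidopsis (accession Col-0) were compared after 8 h at 19 °C and before that shift, at 28 °C. The comparison rested on 6 of the 18 libraries of the series, 3 taken at 8 h and 3 taken at 0 h, chosen by their labels alone. All plants spent their first 3.5 weeks in growth at 28 °C, and the 0 h plants were never moved. The other 12 libraries, again 3 a group, came from Col-0 at 4 h and from the line 35S:RPS4-HS at 8 h, 4 h and 0 h. That line, called 35S:RPS4 below, carries the immune receptor gene RPS4 behind the 35S promoter in the Col-0 background. Col-0 served in the study to separate the effect of the temperature shift from immunity switched on by RPS4. Hours at 19 °C, the temperature itself and the time of day at harvest changed together and cannot be told apart in this comparison. Whether the 3 libraries of each group stem from different plants is not stated in the labels. The p-values thus cover the spread among these libraries, which may be technical.

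Plants sense temperature through proteins that also sense light and through the pace of protein folding. Warmth keeps chaperone and growth genes active, and cooling switches on the CBF factors, which in turn activate genes that protect membranes and proteins from cold. The circadian clock of leaves is a loop of repressors in which morning factors (CCA1, LHY) hold down evening genes (TOC1, the evening complex) and are later held down by them. Many cold, starch and pigment genes follow that clock.

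Between 26074457 and 28530293 read pairs were counted in genes in these 6 libraries. A floor of 3 counts in 1 library thus stood at 0.0971 to 0.11 CPM (counts per 10 to the sixth counts in genes, scaled by TMM), and floors and intervals cover counting error only. Photosynthesis transcripts, which mark leaf tissue, had a mean log2 CPM of 11.3 to 11.8 at 8 h and 11.4 to 11.9 at 0 h over 26 genes. The 3 root and flower markers that could be tested had 1.08 to 1.55 at 8 h and 2.34 to 2.76 at 0 h, and CPM are not scaled by gene length. The petal and stamen gene AP3 and the meristem gene AP1 were not among these 3, since their counts were too low. Of the markers of other leaf cells, 1 of 7 guard cell genes was higher (AT1G22690, log2FC 2.07 ± 0.33, adjusted p = 6.17e-05), and none of 5 epidermal and none of 8 vascular genes was called. The epidermal genes FDH and PDF2 had log2FC of -0.20 ± 0.21 and 0.74 ± 0.19, and the phloem genes SUC2 and SEOR1 of 0.42 ± 0.25 and -0.37 ± 0.31. In bulk leaves, fewer cells of a type and less RNA per cell cannot be told apart. Some libraries stood apart from their groups. Col-0 replicate 1 at 0 h had low jasmonate transcripts, and Col-0 replicate 3 at 8 h had high transcripts of abscisic acid (ABA) and senescence genes, and the values of the lists they move most are also given without them. Col-0 replicate 2 at 0 h had the highest mean log2 CPM of its group for cold genes (4.50, against 2.99 and 3.53). The same held for WRKY factor genes (1.38, against 0.048 and 0.004). It is not among the 2 libraries left out together below as standing apart.

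Of 20023 genes tested by edgeR's quasi-likelihood test, 2107 were higher (10.5%) and 2368 lower (11.8%) at 8 h than at 0 h. A gene counted as called, and is said to have risen or fallen, when its adjusted p (Benjamini-Hochberg) was below 0.01 and its log2 fold change (log2FC, 8 h over 0 h) lay beyond 1 in either direction. The median log2FC was 1.68 among the higher and 1.86 in size among the lower genes, and 322 and 477 of them changed more than 8-fold. Both settings on the libraries that stood apart were added once the data had been seen. Without those 2 libraries the counts were 2094 and 2469. With replicate 1 as the only 0 h library they were 1530 and 1649. In that setting the lone library is assumed to vary like the libraries of the other groups, and fewer calls follow in part from fewer libraries. In the gene lists below, the share of members called is to be read against these 10.5% and 11.8%, and a list's median log2FC against -0.04 over all genes.

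**Figure D1:**
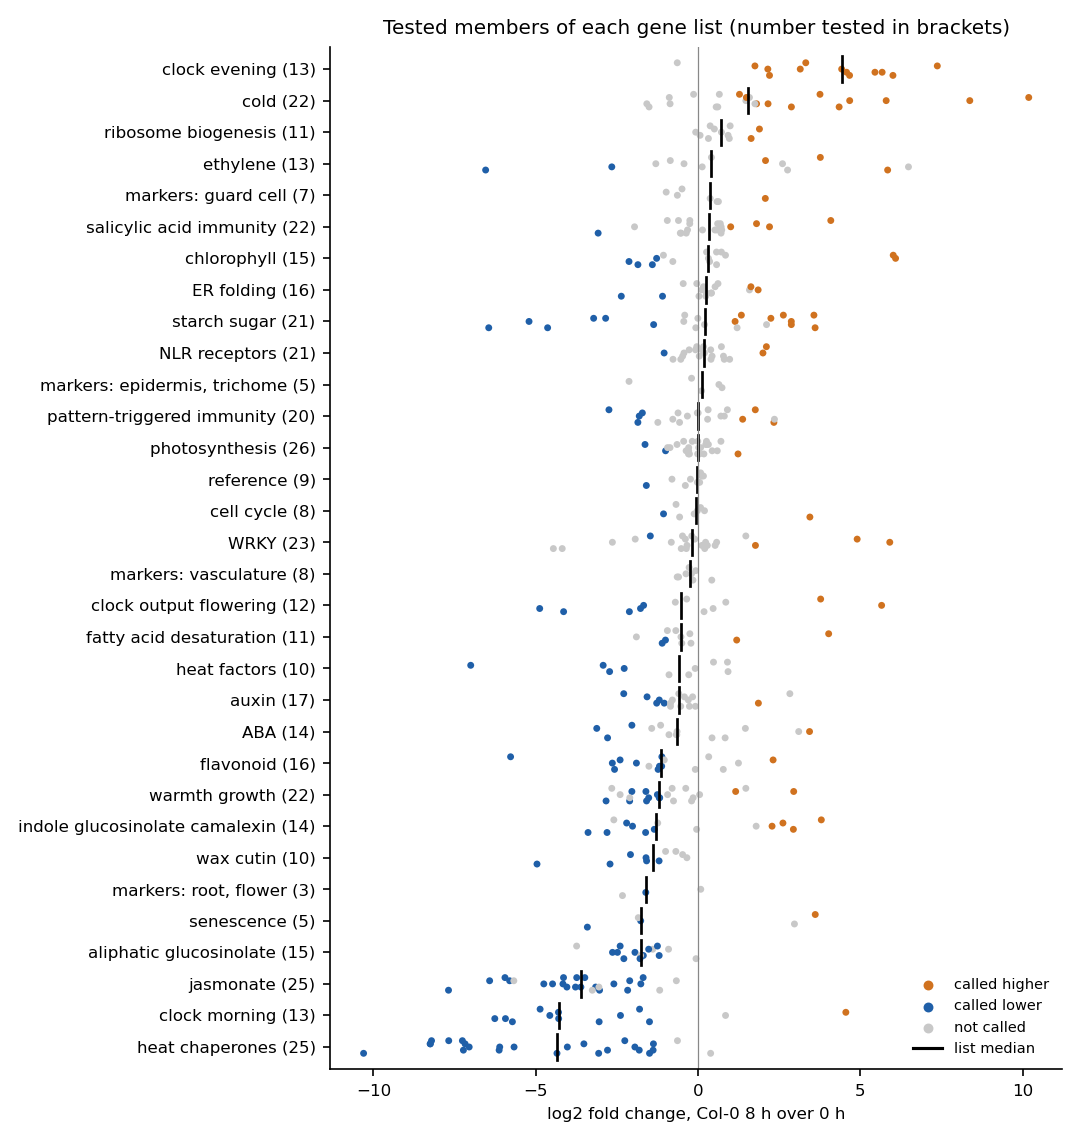
Log2FC (8 h over 0 h in Col-0, x axis) of each tested member (points) of 32 gene lists, with the list median as a black bar. Evening clock genes lie at the top with a median of 4.42 and heat chaperones at the bottom with a median of -4.35, and most other lists straddle 0.

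Evening genes of the clock rose. Of 13 genes tested, 12 were higher at 8 h and none lower (median log2FC 4.42), with called values from 1.75 to 7.37. FKF1, a blue-light receptor that removes repressors of flowering, stood at 178, 194 and 182 CPM at 8 h, against 1.39, 1.06 and 0.881 CPM at 0 h (log2FC 7.37 ± 0.26, adjusted p = 7.05e-12). PRR5, a repressor of the morning genes, stood at 212, 119 and 142 CPM at 8 h, against 2.88, 2.43 and 2.06 CPM at 0 h (log2FC 6.0 ± 0.30, adjusted p = 1.79e-10). Both genes are among the 12 largest rises, for which the naming rule asked for no overlap between the groups. TOC1, which closes the main loop of the clock, stood at 163, 136 and 140.5 CPM at 8 h, against 7.54, 7.45 and 5.47 CPM at 0 h (log2FC 4.42 ± 0.19, adjusted p = 5.00e-11). The evening complex is formed by ELF3, ELF4 and LUX, and all of its members rose. ELF4 stood at 112, 146 and 146 CPM at 8 h, against 8.27, 4.06 and 3.56 CPM at 0 h (log2FC 4.66 ± 0.34, adjusted p = 1.14e-08). LUX, its DNA-binding subunit, stood at 60.9, 59.1 and 61.1 CPM at 8 h, against 3.37, 2.36 and 1.87 CPM at 0 h (log2FC 4.57 ± 0.24, adjusted p = 3.27e-10). ELF3, the scaffold, stood at 57.9, 24 and 29.9 CPM at 8 h, against 3.37, 4.72 and 3.12 CPM at 0 h (log2FC 3.31 ± 0.34, adjusted p = 7.58e-07), with replicate 1 highest at 8 h. PRR3, a relative of TOC1, had a log2FC of 5.45 ± 0.25. GRP7, an RNA-binding protein under clock control, stood at 3324, 5729 and 4363 CPM at 8 h, against 137, 74.8 and 52 CPM at 0 h (log2FC 5.67 ± 0.35, adjusted p = 2.35e-09). FKF1, LUX and ELF3 lie across exons of genes on the opposite strand, as do LNK2, LNK3 and RVE1 of the morning genes below. The strand setting of the counting is not given in the sources used here, so reads of such partners cannot be told apart.

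Many evening genes carry the evening element, a sequence bound by CCA1 and its relatives. Motifs, 6 in number, were searched on both strands in the 300 bases before each annotated gene start: the evening element (AAAATATCT), a CCA1 binding site (AAAAATCT), the G-box (CACGTG), the CRT core of CBF factors (CCGAC), a heat shock element (GAANNTTC) and the CGCG box (CGCG). The evening element was present before 7 of 13 evening genes (53.8%), against 2.83% of 26711 nuclear protein-coding genes. Its share was 7.39% among the genes called higher and 1.83% among those called lower. The promoters of 4 evening genes and of COR27, a cold gene that follows the clock, are shown because they carry the element, which is in capitals on either strand (TAIR10.1, 5′ to 3′, the last base adjoining the annotated start).
GRP7 (chr2:9266558-9266647, minus strand): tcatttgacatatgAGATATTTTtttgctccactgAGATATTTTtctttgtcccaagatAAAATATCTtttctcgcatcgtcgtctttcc
COR27 (chr5:17199911-17199970, minus strand): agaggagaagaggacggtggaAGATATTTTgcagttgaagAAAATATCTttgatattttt
LUX (chr3:17182972-17183041, plus strand): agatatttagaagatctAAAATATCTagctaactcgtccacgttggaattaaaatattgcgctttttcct
TOC1 (chr5:24674803-24674962, plus strand): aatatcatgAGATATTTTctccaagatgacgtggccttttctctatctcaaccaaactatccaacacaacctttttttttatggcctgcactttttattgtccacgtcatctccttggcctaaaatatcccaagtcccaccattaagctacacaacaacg
FKF1 (chr1:25508439-25508638, plus strand): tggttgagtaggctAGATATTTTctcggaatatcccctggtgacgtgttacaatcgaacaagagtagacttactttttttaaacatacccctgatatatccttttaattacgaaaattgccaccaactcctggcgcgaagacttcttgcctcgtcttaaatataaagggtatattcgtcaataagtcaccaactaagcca
GRP7 carries 3 copies within 90 bases of its start and COR27 has 2 copies within 60 bases, while the others shown have 1. A match is a description of the letters and not a test of binding. The CCA1 site was present before 7.69% of evening genes, against 8% of all.

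Morning genes moved the other way. Of 13 tested, 11 fell and 1 rose (median log2FC -4.30), the called falls running from -1.50 to -6.26. CCA1, a MYB repressor of evening genes, stood at 11, 4.41 and 6.83 CPM at 8 h, against 430.0, 319 and 427 CPM at 0 h (log2FC -5.72 ± 0.28, adjusted p = 1.62e-10). Its partner LHY stood at 7.06, 3.29 and 3.77 CPM at 8 h, against 294, 236 and 335 CPM at 0 h (log2FC -5.94 ± 0.28, adjusted p = 1.40e-10). RVE8, a related MYB protein that activates evening genes, stood at 2.07, 1.15 and 1.69 CPM at 8 h, against 113, 126 and 139 CPM at 0 h (log2FC -6.26 ± 0.20, adjusted p = 3.23e-12). In all of them the 8 h libraries lay more than 20-fold below the lowest 0 h library. The co-activators LNK2 and LNK3 had log2FC of -4.30 ± 0.22 and -4.87 ± 0.21, and the repressor PRR9 one of -4.30 ± 0.27. RVE1, which links the clock to auxin, had -4.57 ± 0.46. RVE2, another MYB gene of the list, was its exception and stood at 61.2, 60.7 and 63.9 CPM at 8 h, against 3.23, 2.63 and 2.06 CPM at 0 h (log2FC 4.55 ± 0.31, adjusted p = 6.05e-09). The G-box, a site of light-regulated bZIP and bHLH factors, was present before 7 of the 13 morning genes (53.8%), against 7.18% of all nuclear protein-coding genes. RVE2, which rose, and PRR7, which was not called, are among the carriers. Its share was 6.09% among the genes called higher and 13.4% among those called lower. It was 31.2% in the list of endoplasmic reticulum folding and 28.6% in the ABA list. The promoters of CCA1, LHY and RVE1 are shown with the G-box in capitals.
CCA1 (chr2:19245391-19245590, plus strand): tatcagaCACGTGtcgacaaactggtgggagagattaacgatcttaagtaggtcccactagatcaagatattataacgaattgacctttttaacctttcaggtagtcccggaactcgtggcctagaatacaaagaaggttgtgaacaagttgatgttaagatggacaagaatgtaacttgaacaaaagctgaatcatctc
LHY (chr1:37872-37971, minus strand): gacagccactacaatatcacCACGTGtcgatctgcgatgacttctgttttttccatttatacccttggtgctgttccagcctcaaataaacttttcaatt
RVE1 (chr5:5692993-5693112, minus strand): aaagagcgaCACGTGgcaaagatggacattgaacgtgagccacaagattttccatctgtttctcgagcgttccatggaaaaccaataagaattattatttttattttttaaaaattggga
No evening element was found before a morning gene in this window.

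**Figure D2:**
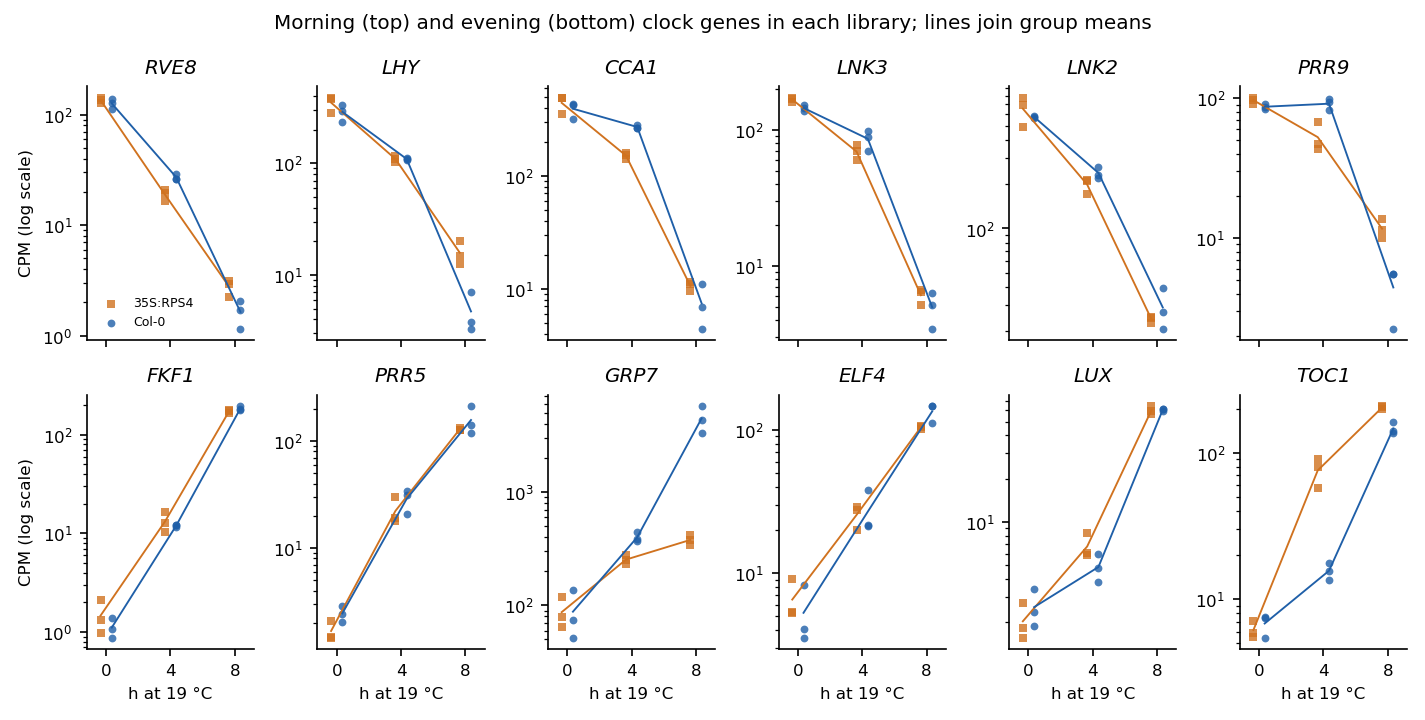
CPM (log scale) of 6 morning genes (top row) and 6 evening genes (bottom row) after 0, 4 and 8 h at 19 °C in 35S:RPS4 (orange squares) and Col-0 (blue circles), with 1 point a library and lines through group means. Both lines move in the same direction in every panel between 0 and 8 h, whereas GRP7 reached 339.8 to 416 CPM in 35S:RPS4 and 3324 to 5729 CPM in Col-0 at 8 h.

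CCA1 had 392.1 ± 62.9 CPM (SD) at 0 h, then 270.0 ± 8.6 CPM at 4 h and finally 7.42 ± 3.36 CPM at 8 h, and the change between 8 h and 4 h was the larger one (log2FC -5.18 ± 0.27, adjusted p = 2.92e-09). PRR9 likewise had 87 ± 3.27 CPM (SD) at 0 h, then 91.5 ± 8.62 CPM at 4 h and finally 4.42 ± 1.89 CPM at 8 h, with log2FC -4.37 ± 0.27, adjusted p = 1.27e-08 between 8 h and 4 h. FKF1 climbed in both intervals, with 1.11 ± 0.257 CPM (SD) at 0 h, then 11.9 ± 0.32 CPM at 4 h and finally 184 ± 8.41 CPM at 8 h. Of the 13 morning genes 10 were lower at 8 h than at 4 h, where 4.88% of all genes were lower, and of the 13 evening genes 10 were higher, where 4.4% of all genes were.

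Genes that carry the clock's output to flowering were split. FT, the mobile flowering signal, stood at 12.8, 14.8 and 13.7 CPM at 8 h, against 0.174, 0.199 and 0.44 CPM at 0 h (log2FC 5.65 ± 0.53, adjusted p = 2.51e-07). CO, which activates FT in long days, stood at 6.31, 4.37 and 9.01 CPM at 8 h, against 0.625, 0.399 and 0.404 CPM at 0 h (log2FC 3.77 ± 0.57, adjusted p = 4.07e-05). The repressors of CO named CDF1, CDF2 and CDF3 fell, with log2FC of -2.12 ± 0.22, -1.78 ± 0.26 and -1.68 ± 0.21, and so did the relatives of CO named COL1 (-4.14 ± 0.28) and COL2 (-4.88 ± 0.34). In all, 2 of 12 genes of this list were higher and 5 lower. CO, COL1 and COL2 overlap exons on the other strand.

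Heat shock genes fell almost throughout. Of 25 chaperone and heat-protection genes tested, 23 were lower and none higher (median log2FC -4.35), and the list's mean log2 CPM was 1.26, 1.49 and 1.61 in the 8 h libraries, against 6.06, 5.71 and 5.77 in the 0 h libraries. HSP90.1, the heat-inducible cytosolic HSP90, stood at 3.72, 3.45 and 7.03 CPM at 8 h, against 845, 556 and 734 CPM at 0 h (log2FC -7.23 ± 0.39, adjusted p = 4.49e-10). HOP3, a co-chaperone between HSP70 and HSP90, stood at 1.33, 1.81 and 1.85 CPM at 8 h, against 289.5, 198 and 237 CPM at 0 h (log2FC -7.18 ± 0.38, adjusted p = 3.23e-10). The small heat shock protein HSP17.6A had 3 counts over the 3 libraries of 8 h and 4042 counts over those of 0 h, and stood at 0.0324, 0 and 0.0651 CPM at 8 h, against 62.8, 41 and 36.8 CPM at 0 h. The ratio of 0 h over 8 h was 1440 (95% exact binomial interval 492 to 6990). HSP23.6-MITO of mitochondria, with 1 count at 8 h, had a ratio of 429 (76.5 to 17000). HSP17.4 stood at 0.0647, 0.395 and 0.228 CPM at 8 h, against 70.2, 37.5 and 35.8 CPM at 0 h (log2FC -7.68 ± 0.70, adjusted p = 1.87e-07), and AT1G07400 and AT1G53540 had log2FC of -8.21 ± 0.67 and -8.26 ± 1.21. Small heat shock genes include close copies, and in the deposited table reads aligned in more than 1 place stand apart from the genes, so these values are uncertain. GOLS1, which makes galactinol, a protectant sugar induced by heat, stood at 2.62, 2.96 and 7.58 CPM at 8 h, against 255, 914 and 852 CPM at 0 h (log2FC -7.26 ± 0.73, adjusted p = 5.72e-07). HSP17.4, HOP3, GOLS1, MBF1C and HSFB2B overlap exons on the other strand. Of the factors that drive these genes, 4 of 10 fell and none rose. HSFA2, the factor that sustains the heat response, stood at 0.0324, 0.0329 and 0.651 CPM at 8 h, against 24, 41.3 and 28.4 CPM at 0 h (log2FC -7.01 ± 0.64, adjusted p = 2.01e-07), and the log2FC was -9.72 without 8 h replicate 3. MBF1C, a co-activator of the response, and the repressors HSFB2A and HSFB2B had log2FC of -2.93 ± 0.22, -2.73 ± 0.35 and -2.28 ± 0.17. The fall was early: 21 of 25 chaperone genes were lower at 4 h than at 0 h, where 4.79% of all genes were lower, and 7 were lower again at 8 h than at 4 h. The heat shock element was found before 7 of the 27 genes listed (25.9%), against 11.4% of all nuclear protein-coding genes. Its share was 12.4% among the genes called higher and 12.5% among those called lower. It was 38.5% in the ethylene list and 31.8% in the list of salicylic acid immunity.

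Of 22 cold-response genes 11 rose and none fell (median log2FC 1.53). AT4G33980, which carries no symbol in the annotation, stood at 122, 165 and 134 CPM at 8 h, against 0.174, 0.0997 and 0.0734 CPM at 0 h (log2FC 10.18 ± 0.33, adjusted p = 3.23e-12), the largest rise of any named gene. COR27, a cold gene that also acts in the clock, stood at 127, 165 and 149 CPM at 8 h, against 0.556, 0.465 and 0.294 CPM at 0 h (log2FC 8.37 ± 0.40, adjusted p = 1.40e-10). Most of that rise came late, with 0.438 ± 0.133 CPM (SD) at 0 h, then 2.23 ± 0.652 CPM at 4 h and finally 147 ± 19.1 CPM at 8 h. The CBF factors, which switch on other cold genes, rose too. CBF3 stood at 24.9, 25.8 and 36.6 CPM at 8 h, against 0.486, 0.632 and 0.44 CPM at 0 h (log2FC 5.79 ± 0.39, adjusted p = 5.80e-09), CBF1 at 1.26, 1.45 and 3.9 CPM at 8 h, against 0, 0.166 and 0.147 CPM at 0 h (log2FC 4.34 ± 0.92, adjusted p = 9.23e-04) and CBF2 at 1.62, 1.74 and 2.18 CPM at 8 h, against 0.417, 0.698 and 0.11 CPM at 0 h (log2FC 2.15 ± 0.58, adjusted p = 0.00549). The call of CBF2 ended without any one of 4 libraries (highest adjusted p = 0.0237, without 0 h replicate 3). COR15B, which shields chloroplast membranes, stood at 895, 1172 and 1198 CPM at 8 h, against 17.82, 69.3 and 41.4 CPM at 0 h (log2FC 4.67 ± 0.36, adjusted p = 2.56e-08). RCI2A, a small membrane protein, stood at 349.8, 591 and 475 CPM at 8 h, against 62.3, 75.5 and 55.5 CPM at 0 h (log2FC 2.87 ± 0.21, adjusted p = 1.37e-08), and 8 h exceeded 0 h more than 4-fold in every pair of libraries. LTI30, a dehydrin, stood at 17.45, 21.9 and 77.5 CPM at 8 h, against 1.28, 6.78 and 0.514 CPM at 0 h (log2FC 3.75 ± 0.71, adjusted p = 3.48e-04), with replicate 3 highest at 8 h and replicate 2 highest at 0 h. Its log2FC was 5.42 without that 0 h library. The CRT core was present before 9 of the 22 cold genes (40.9%), against 13.8% of all nuclear protein-coding genes. Its share was 14% among the genes called higher and 14.6% among those called lower. It was 44.4% in the auxin list and 41.7% in the list of clock output to flowering. LTI30 is shown because it carries 3 copies within 110 bases, in capitals.
LTI30 (chr3:18940533-18940642, plus strand): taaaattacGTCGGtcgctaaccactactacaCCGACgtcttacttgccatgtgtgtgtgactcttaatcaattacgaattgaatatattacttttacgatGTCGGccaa
The cold list depended on the libraries entered. Its mean log2 CPM was 5.54, 5.90 and 6.40 in the 8 h libraries, against 2.99, 4.50 and 3.53 in the 0 h libraries, which do not overlap. With the 2 libraries that stood apart left out, 8 members were higher and 3 lower (median 0.73), and in a fit to only the 6 libraries of the comparison 6 were higher. Without 0 h replicate 2, the 0 h library with the highest cold transcripts, 15 were higher (median 2.26), and with replicate 1 as the only 0 h library 14 were (median 2.90). CBF3, COR15B and RCI2A overlap exons on the other strand.

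**Figure D3:**
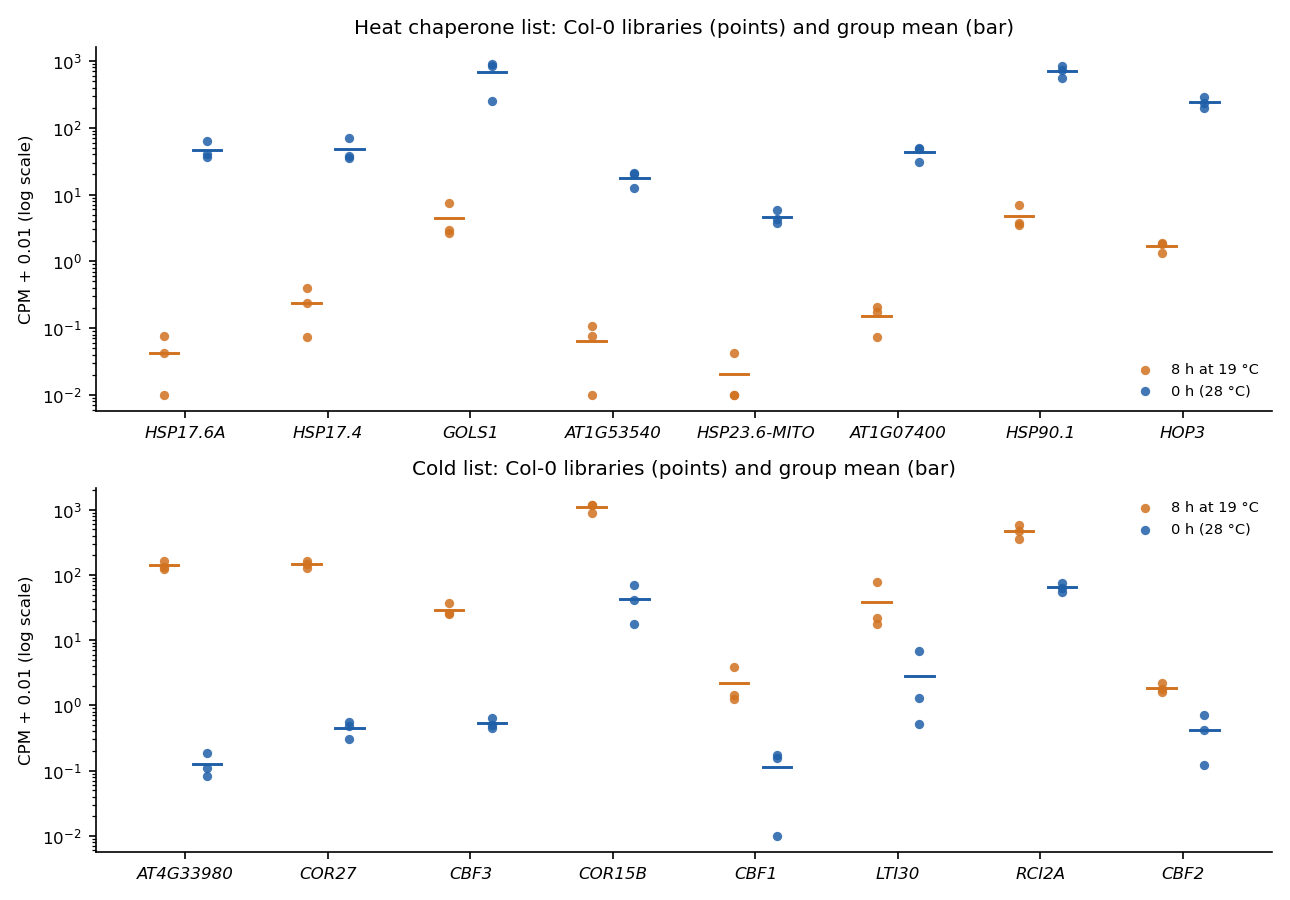
CPM plus 0.01 (log scale) of 8 heat chaperone genes (top) and 8 cold genes (bottom) in the Col-0 libraries at 8 h (orange, left of each pair) and 0 h (blue, right), with group means as bars. The plotted genes are the called members with the largest changes in each list. That no 8 h library overlaps a 0 h library in them follows in part from this choice. These heat genes were lower and these cold genes higher at 8 h.

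In a list of 22 genes of light signalling and growth in warmth, 9 were lower and 2 higher (median log2FC -1.19). The lower ones were PIF5, ATHB2 and YUC2, which promote growth, and PHYB, COP1, HY5, HFR1, BBX18 and BBX24 of light signalling, some of which restrain it. The higher ones were EXPA1, a cell wall expansin, and GA3OX1, and only 1 gene was higher without any one of 0 h replicates 2 and 3 and 8 h replicates 1 and 2. HY5, a bZIP factor of light signalling, stood at 10.6, 16 and 11.7 CPM at 8 h, against 58.8, 43.6 and 63.1 CPM at 0 h (log2FC -2.11 ± 0.21, adjusted p = 4.57e-07), and BBX18, a B-box protein, at 6.77, 7.13 and 5.27 CPM at 8 h, against 40.8, 51.9 and 44.3 CPM at 0 h (log2FC -2.84 ± 0.21, adjusted p = 1.40e-08). HFR1, an inhibitor of shade growth, had a log2FC of -2.04 ± 0.55, but its call ended without any one of 4 libraries (highest adjusted p = 0.0303). GA3OX1, which makes active gibberellin, rose and stood at 5.08, 4.77 and 3.87 CPM at 8 h, against 0.382, 0.764 and 0.624 CPM at 0 h (log2FC 2.94 ± 0.37, adjusted p = 1.34e-05). Of 17 auxin genes 5 were lower and 1 higher. PIN7, an auxin exporter, stood at 153, 127 and 107 CPM at 8 h, against 47.9, 27.5 and 31.6 CPM at 0 h (log2FC 1.86 ± 0.30, adjusted p = 9.36e-05). The repressor gene IAA6 had a log2FC of -2.29 ± 0.34. IAA5 (-1.57 ± 0.45) and IAA14 (-1.28 ± 0.33) each lost the call without any one of 5 libraries, with adjusted p up to 0.0443 and 0.0229, and only 1 auxin gene was lower without 0 h replicate 3.

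Transcripts of photosynthesis changed little as a group. Of 26 genes, 1 was higher and 2 were lower (median log2FC -0.01). RCA, which keeps Rubisco active, stood at 4424, 4918 and 4904 CPM at 8 h, against 17180.0, 11045 and 16056 CPM at 0 h (log2FC -1.64 ± 0.16, adjusted p = 4.67e-07). The antenna gene LHCB1.2 stood at 5425, 7333 and 7808 CPM at 8 h, against 4124, 2199 and 2455 CPM at 0 h (log2FC 1.23 ± 0.22, adjusted p = 2.38e-04), with near-identical copies next to it that make its value uncertain. RBCS2B, a small subunit of Rubisco with close copies, had a log2FC of -1.0 ± 0.24 and lost its call without any one of 4 libraries (adjusted p up to 0.0145). Of the 3 genes of light-driven chlorophyllide synthesis, PORA and PORB rose and PORC was not called. PORB stood at 1223, 1585 and 1274 CPM at 8 h, against 21.9, 23.9 and 17.62 CPM at 0 h (log2FC 6.01 ± 0.22, adjusted p = 8.55e-12). PORA, known from seedlings, stood at 6.73, 9.5 and 5.79 CPM at 8 h, against 0.208, 0.0997 and 0 CPM at 0 h (log2FC 6.08 ± 0.59, adjusted p = 3.63e-07). GUN4 and HEMA1, which also act in chlorophyll synthesis, fell (-2.13 ± 0.24 and -1.86 ± 0.20). The chlorophyll list as a whole had 2 of 15 genes higher and 4 lower. PORB, GUN4 and RCA overlap exons on the other strand.

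Genes of starch and sugar metabolism and transport, with genes induced by sugar shortage, changed in both directions, 8 of 21 being higher and 6 lower. GBSS1, which makes amylose, stood at 26.4, 13.9 and 18.3 CPM at 8 h, against 1682, 1336 and 2105 CPM at 0 h (log2FC -6.45 ± 0.35, adjusted p = 5.04e-10). ISA3, a debranching enzyme of starch breakdown, stood at 149, 114 and 104 CPM at 8 h, against 11.8, 9.54 and 8.85 CPM at 0 h (log2FC 3.60 ± 0.17, adjusted p = 1.13e-10). DIN1, a gene induced by darkness and sugar shortage, stood at 0.55, 0.197 and 2.44 CPM at 8 h, against 42.7, 43.3 and 32.4 CPM at 0 h (log2FC -5.21 ± 0.55, adjusted p = 9.48e-07). BAM5, a beta-amylase, had 4.08, 6.21 and 34.9 CPM at 8 h, against 200.4, 526 and 399 CPM at 0 h, and its call ended without 8 h replicate 1 or 2 (adjusted p up to 0.021). Of 11 genes of membrane lipids, ADS2, a desaturase that acts in cold, stood at 545, 703 and 679 CPM at 8 h, against 42.2, 47.9 and 28.7 CPM at 0 h (log2FC 4.02 ± 0.27, adjusted p = 4.57e-09). FAD3, which makes linolenic acid, had 1.19 ± 0.28 (adjusted p = 0.0127 without 0 h replicate 2). FAB2 and MGD1 had -1.01 ± 0.12 and -1.11 ± 0.23 and passed a fold of 2 or not depending on the library left out (log2FC from -1.11 to -0.93 and from -1.42 to -0.90).

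Many genes of the leaf surface and of secondary metabolism fell. Of 10 wax and cutin genes 6 were lower and none higher (median log2FC -1.40). WSD1, which makes wax esters, stood at 2.04, 2.5 and 2.5 CPM at 8 h, against 108, 41 and 70.8 CPM at 0 h (log2FC -4.96 ± 0.49, adjusted p = 4.14e-07), and CER1, CER6 and CER3 of wax chain synthesis had -2.71 ± 0.33, -2.08 ± 0.20 and -1.61 ± 0.20. Of 16 flavonoid genes 9 were lower and 1 higher (median -1.16), with 5 lower without 8 h replicate 3. PAP1, the MYB activator of anthocyanin synthesis, stood at 1.26, 1.02 and 2.05 CPM at 8 h, against 34.9, 78.5 and 125 CPM at 0 h (log2FC -5.78 ± 0.88, adjusted p = 4.40e-05). F3H, UGT78D2 and 4CL1, enzymes of the pathway, had -2.64 ± 0.32, -2.58 ± 0.27 and -2.40 ± 0.20. Of these 16, 10 were lower at 8 h than at 4 h and none was higher, and F3H had 621 ± 242 CPM (SD) at 0 h, then 780.4 ± 205 CPM at 4 h and finally 99.4 ± 34.9 CPM at 8 h. Of 15 genes of aliphatic glucosinolates, the sulphur compounds that deter insects, 10 were lower and none higher (median -1.77). Without 8 h replicate 1 or 2 the count was 5, without 0 h replicate 2 it was 6, and with replicate 1 as the only 0 h library it was 2. FMOGS-OX1, which oxidises side chains, stood at 11.8, 7.5 and 13.3 CPM at 8 h, against 37.4, 85.4 and 59.5 CPM at 0 h (log2FC -2.48 ± 0.35, adjusted p = 2.08e-05) and GGP1 had -2.40 ± 0.45. CYP79F2 (-2.64 ± 0.71) and BCAT4 (-2.29 ± 0.62) lost the call without any one of 4 libraries each (adjusted p up to 0.03 and 0.0314). Of 14 genes of indole glucosinolates and camalexin 6 were lower and 4 higher (median -1.30), while the mean log2 CPM overlapped between 3.42, 3.23 and 4.03 at 8 h and 3.23, 4.35 and 4.22 at 0 h. With replicate 1 as the only 0 h library 1 was lower and 2 higher (median 0.10), and without both libraries that stood apart 7 were lower and 3 higher (median -2.15). MYB34 fell (log2FC -3.39 ± 0.52, adjusted p = 4.71e-05) while MYB51, a MYB activator of the same branch, rose (log2FC 2.93 ± 0.48, adjusted p = 9.97e-05). CYP81F2, which modifies indole glucosinolates, rose to low levels (1.81, 0.855 and 5.2 CPM at 8 h, against 0.0695, 0.366 and 0.11 CPM at 0 h, log2FC 3.79 ± 0.76, adjusted p = 5.83e-04). CYP71A13 of camalexin synthesis fell (log2FC -2.81 ± 0.41, adjusted p = 3.00e-05).

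Jasmonate genes, which respond to wounding and insects, had the widest range of mean log2 CPM among the 0 h libraries of any of the 32 lists. Of 25 genes tested, 20 were lower at 8 h and none higher (median log2FC -3.61). The list's mean log2 CPM was 2.56, 2.61 and 3.99 in the 8 h libraries, against 4.52, 7.46 and 7.23 in the 0 h libraries. Replicate 1 at 0 h lay closer to 8 h replicate 3 than to the other libraries of its own group. In 35S:RPS4 at 0 h, also at 28 °C, the mean was 4.01 to 5.25. With replicate 1 as the only 0 h library, 6 of the 25 genes were lower (median -1.22). Without it 22 were, and 24 were when 8 h replicate 3 was left out as well. JAZ10, a repressor of the pathway that the pathway itself induces, stood at 0.227, 0.23 and 1.11 CPM at 8 h, against 2.15, 80.1 and 53 CPM at 0 h (log2FC -6.42 ± 1.02, adjusted p = 6.54e-05). JAZ7 stood at 0, 0.0658 and 0.163 CPM at 8 h, against 1.22, 17 and 31.7 CPM at 0 h (log2FC -7.69 ± 1.13, adjusted p = 3.11e-05) and JAZ5 at 1.46, 1.22 and 2.47 CPM at 8 h, against 16.5, 109 and 163 CPM at 0 h (log2FC -5.81 ± 0.71, adjusted p = 5.07e-06). CYP94C1, which acts in breakdown of the active hormone, had -5.95 ± 0.99. CYP94B1, which also acts in that breakdown, stood at 0.0647, 0 and 0.293 CPM at 8 h, against 3.54, 106 and 97.8 CPM at 0 h (log2FC -9.13 ± 1.29, adjusted p = 2.20e-05). Genes of volatile synthesis showed the same library pattern. BSMT1, which makes methyl salicylate and methyl benzoate, had 1 count over the 8 h libraries and stood at 0, 0 and 0.0325 CPM at 8 h, against 3.02, 41 and 34.3 CPM at 0 h, and the ratio of 0 h over 8 h was 2410 (95% exact binomial interval 432 to 95100). TPS04, a terpene synthase, stood at 0.0324, 0.0658 and 0.195 CPM at 8 h, against 2.99, 45.5 and 32.9 CPM at 0 h (log2FC -8.05 ± 1.53, adjusted p = 3.60e-04). TAT3, a tyrosine aminotransferase induced by jasmonate, stood at 2.62, 4.31 and 12 CPM at 8 h, against 14.5, 327 and 169 CPM at 0 h (log2FC -4.75 ± 0.87, adjusted p = 2.59e-04), and AOC3 of jasmonate synthesis had -4.73 ± 1.07, and its call ended without either of 2 libraries (adjusted p up to 0.0185). Limma voom did not call CYP94B1, CYP94C1, JAZ10, JAZ7, BSMT1, TPS04 or AOC3. Of the 25 genes 19 were lower at 4 h than at 0 h and none was called between 8 h and 4 h.

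**Figure D4:**
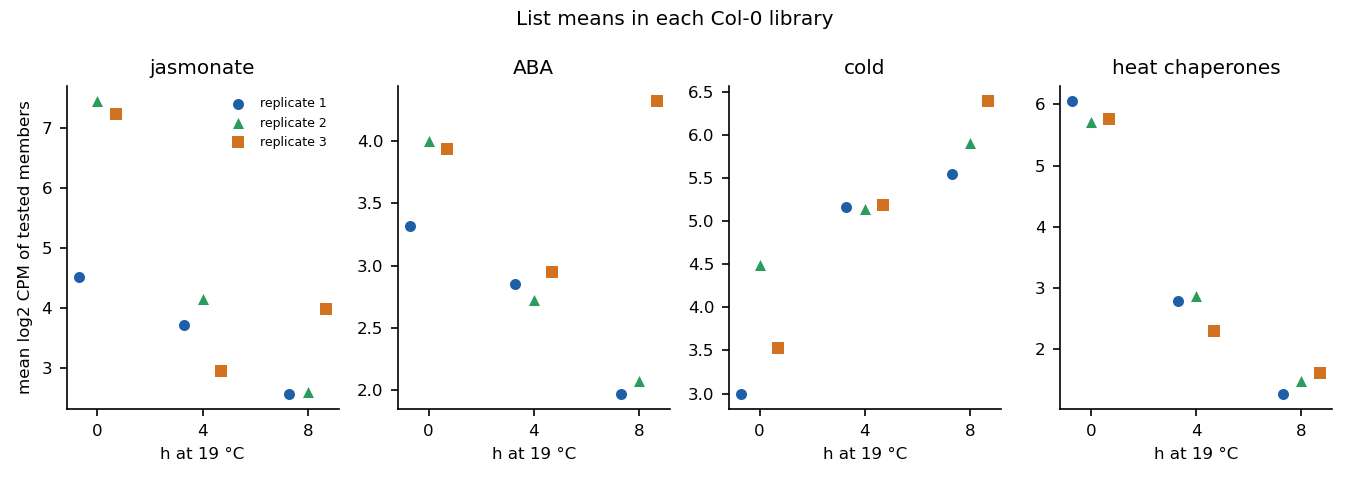
Mean log2 CPM of the tested members of 4 lists (y axis) in each Col-0 library after 0, 4 and 8 h at 19 °C, with a symbol for each replicate number. No pairing of libraries across times by that number was seen. Replicate 1 at 0 h lies low for jasmonate at 4.52 and replicate 3 at 8 h lies high for ABA at 4.32, while the heat chaperone list is tight in both groups.

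ABA genes, which respond to drought, split the 8 h libraries. Their mean log2 CPM was 1.97, 2.07 and 4.32 at 8 h, against 3.32, 4.00 and 3.94 at 0 h. Of 14 genes 3 were lower and 1 higher, and without 8 h replicate 3 the lower count was 9. HAB1, a phosphatase that holds back ABA signalling, stood at 4.5, 5.03 and 32.4 CPM at 8 h, against 101, 121 and 143 CPM at 0 h (log2FC -3.12 ± 0.52, adjusted p = 1.16e-04, or -4.67 without that library). ABF3, a bZIP activator of ABA genes, stood at 3.79, 3.85 and 25.7 CPM at 8 h, against 77.5, 63.8 and 89.6 CPM at 0 h (log2FC -2.79 ± 0.51, adjusted p = 2.72e-04, or -4.33 without it). RD22, a dehydration gene, had -2.04 ± 0.27, and CYP707A3, which breaks ABA down, rose (log2FC 3.43 ± 0.50, adjusted p = 5.29e-05). The senescence list moved with the same library, its mean log2 CPM being -0.29, -0.14 and 2.76 at 8 h and 1.33, 2.17 and 1.60 at 0 h. SAG21 stood at 5.31, 4.41 and 102 CPM at 8 h, against 2.08, 4.15 and 2.9 CPM at 0 h (log2FC 3.61 ± 0.87, adjusted p = 0.00257), and its call ended without any one of 3 libraries. Without 8 h replicate 3 the log2FC was 0.67 (adjusted p = 0.12). NYE1, which starts chlorophyll breakdown, fell (log2FC -1.77 ± 0.18, adjusted p = 5.31e-07), as did SAG13 (log2FC -3.41 ± 0.63, adjusted p = 2.83e-04). Exons on the other strand also overlap BBX8, BSMT1, JAZ10, ABF3, F3H, 4CL1, BCAT4, CYP71A13, IAA5, SARD1, FLS2, NUC1, KNOLLE, ERDJ3A and AT1G22690.

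Immune genes changed in both directions in Col-0. Their counts are to be read against the 10.5% of all genes called higher and 11.8% called lower. Of 22 genes of salicylic acid (SA) immunity 4 were higher and 1 lower. SARD1, a regulator of SA synthesis, stood at 6.93, 6.41 and 9.43 CPM at 8 h, against 2.15, 1.3 and 1.5 CPM at 0 h (log2FC 2.2 ± 0.24, adjusted p = 1.42e-06). NIMIN1, whose product interacts with the SA receptor NPR1, stood at 1.59, 1.81 and 3.9 CPM at 8 h, against 0.0695, 0.233 and 0.11 CPM at 0 h (log2FC 4.09 ± 0.53, adjusted p = 8.12e-06), and PR5, a defence protein, at 44.2, 53.6 and 46.5 CPM at 8 h, against 13, 6.88 and 21.6 CPM at 0 h (log2FC 1.80 ± 0.27, adjusted p = 3.38e-05). The glutaredoxin gene GRX480 had a log2FC of -3.08 ± 0.74 with overlapping groups, and it lost its call without any one of 3 libraries (adjusted p up to 0.0167). Of 21 NLR receptor genes 2 were higher and 1 lower. RPP4 stood at 159.5, 106 and 133 CPM at 8 h, against 35.8, 36 and 28.1 CPM at 0 h (log2FC 2.0 ± 0.17, adjusted p = 5.88e-08) and VICTR had 2.1 ± 0.24. SUMM2 had -1.05 ± 0.16, or -0.93 without 0 h replicate 1. RPS4 itself stood at 20.1, 14.3 and 15.8 CPM at 8 h, against 12.7, 13.2 and 12.2 CPM at 0 h (log2FC 0.40 ± 0.15, adjusted p = 0.0418) and was not called, whereas it stood at 665 to 781 CPM in 35S:RPS4 at 8 h. Of 20 genes of pattern-triggered immunity 3 were higher and 4 lower, or 2 lower without 0 h replicate 2 or 8 h replicate 2. FLS2, the flagellin receptor, was higher (log2FC 2.33 ± 0.38, adjusted p = 9.35e-05), and RBOHD, which makes the oxidative burst, and PEPR1, a receptor of danger peptides, were lower (-1.86 ± 0.17 and -1.81 ± 0.19). PHI-1 had -2.75 ± 0.78, and its call ended without any one of 3 libraries (adjusted p up to 0.124). Of 23 WRKY genes 3 were higher and 1 lower, with 1 higher without 0 h replicate 3 or 8 h replicate 2 and 3 lower without 0 h replicate 1. WRKY54 stood at 47.6, 42.4 and 44.6 CPM at 8 h, against 2.95, 1.13 and 0.404 CPM at 0 h (log2FC 4.90 ± 0.60, adjusted p = 4.61e-06) and WRKY70 had 1.76 ± 0.44, with adjusted p up to 0.0198 when 1 library was left out. WRKY46 fell (log2FC -1.47 ± 0.25, adjusted p = 1.07e-04). WRKY38 had 24 counts at 8 h and 0 counts at 0 h, at least 7.49-fold higher when 0 h is set to 3 counts for the 3 libraries together, and its call ended without any one of 5 libraries.

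Several smaller groups complete the lists. Of 13 ethylene genes 3 were higher and 2 lower, and the lower count ran from 0 to 4 with 1 library left out. Ethylene-response factors ERF104 (log2FC 5.84 ± 0.70, adjusted p = 3.76e-06) and ERF6 (log2FC 3.76 ± 0.56, adjusted p = 3.32e-05) rose. ERF1A had 3.3, 5.03 and 8.29 CPM at 8 h, against 6.25, 22.4 and 76.6 CPM at 0 h, with overlapping groups, and its call ended without any one of 3 libraries (adjusted p up to 0.0372). ERF1 had 0 counts at 8 h and 35 at 0 h, at least 12.5-fold lower by the same floor, and lost its call without any one of 5 libraries. In the list of ribosome biogenesis 2 of 11 genes rose and none fell (4 rose without 0 h replicate 1 and 5 without 0 h replicate 3), NUC1 and FIB2 of the nucleolus having 1.63 ± 0.15 and 1.89 ± 0.17. PCNA1, the clamp of DNA replication, stood at 24.6, 28.1 and 26.4 CPM at 8 h, against 4.45, 1.89 and 0.918 CPM at 0 h (log2FC 3.44 ± 0.52, adjusted p = 3.99e-05). KNOLLE, of dividing cells, had -1.07 ± 0.30 (adjusted p up to 0.0369 without 1 library). Of 16 folding genes of the endoplasmic reticulum, PDIL1-1 and AT5G07340 rose (1.63 ± 0.15 and 1.85 ± 0.18) and ERDJ3A and BZIP28 fell (-2.37 ± 0.29 and -1.10 ± 0.12). Of 9 genes used as expression references, UBQ10 fell (262, 435 and 358 CPM at 8 h, against 926, 1246 and 1018 CPM at 0 h, log2FC -1.60 ± 0.23, adjusted p = 3.10e-05). SCR, a marker of root and bundle cells, fell (log2FC -1.61 ± 0.26, adjusted p = 7.65e-05).

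Outside the lists, the naming rule took the largest changes with a gene symbol. MEE14 stood at 305, 445 and 366 CPM at 8 h, against 0.972, 1.53 and 0.551 CPM at 0 h (log2FC 8.50 ± 0.42, adjusted p = 1.92e-10). BT2, a scaffold protein of sugar and nitrate responses, stood at 55.9, 59.3 and 80.6 CPM at 8 h, against 0.0695, 0.499 and 0.257 CPM at 0 h (log2FC 7.85 ± 0.49, adjusted p = 2.42e-09). COL9 and BBX8, B-box relatives of CO, had 6.34 ± 0.27 and 5.58 ± 0.28. KCS8, a ketoacyl-CoA synthase of very long fatty acids, stood at 56.3, 70.2 and 42.6 CPM at 8 h, against 1.77, 0.532 and 0.771 CPM at 0 h (log2FC 5.78 ± 0.50, adjusted p = 9.66e-08). These genes were named by a rule that asked for no overlap between the groups, so their separation follows from that choice. Among the falls, ASG4, a MYB gene, stood at 0.194, 0.132 and 0.651 CPM at 8 h, against 68.1, 41 and 66.5 CPM at 0 h (log2FC -7.47 ± 0.49, adjusted p = 4.06e-09), and BBX31, a B-box gene, at 0.194, 0.23 and 0.553 CPM at 8 h, against 41.7, 51.2 and 67.6 CPM at 0 h (log2FC -7.34 ± 0.46, adjusted p = 2.24e-09). MAPKKK21 had 0.0647, 0.0658 and 0.553 CPM at 8 h, against 5.83, 41 and 77.3 CPM at 0 h (log2FC -7.48 ± 0.98, adjusted p = 9.61e-06). AAE12 had 3 counts at 8 h and TRFL4 had 1, with ratios of 0 h over 8 h of 425 (145 to 2070) and 1280 (229 to 50600). At 0 h, MAPKKK21, AAE12 and TRFL4 were lowest in replicate 1.

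The step between 4 h and 8 h was tested on its own, and 881 genes were higher (4.4%) and 978 lower (4.88%) at 8 h. At 4 h against 0 h, which shares its 0 h libraries with the main comparison, 774 (3.87%) and 960 (4.79%) genes were called. Besides the clock genes, large late rises included those of BT2 (log2FC 6.54 ± 0.44, adjusted p = 3.00e-08), AT4G33980 and COR27 (6.22 ± 0.24 and 6.04 ± 0.34), MEE14 (4.24 ± 0.33), GER3 and DYL1. GER3, a germin-like protein, had 24.3 ± 23.2 CPM (SD) at 0 h, then 33.5 ± 3.06 CPM at 4 h and finally 739 ± 119.5 CPM at 8 h, with replicate 1 highest at 0 h, and its log2FC over 0 h was 6.08 without that library against 4.93 with it. DYL1, a dormancy-associated gene, had 4.74 ± 2.02 CPM (SD) at 0 h, then 5.24 ± 2.98 CPM at 4 h and finally 94.3 ± 33.2 CPM at 8 h. Large late falls included SIGE, a sigma factor of plastid transcription, with 557 ± 158 CPM (SD) at 0 h, then 347 ± 24.4 CPM at 4 h and finally 13.9 ± 6.67 CPM at 8 h, and ASPGB1, an asparaginase, with 6.63 ± 3.11 CPM (SD) at 0 h, then 14.7 ± 7.1 CPM at 4 h and finally 0.458 ± 0.381 CPM at 8 h. Of the 22 cold genes, 9 were higher at 4 h than at 0 h and 3 were higher at 8 h than at 4 h.

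In 35S:RPS4 the same shift, which shares no library with that of Col-0, gave 5306 genes higher (26.5%) and 5956 lower (29.7%). Of the genes called higher in Col-0, 844 were also called higher in 35S:RPS4 (40.1% of the Col-0 list and 15.9% of the 35S:RPS4 list) and 427 were called lower. Of those called lower in Col-0, 1340 were lower in 35S:RPS4 too (56.6% and 22.5%) and 371 were higher. The interaction, the log2FC of 35S:RPS4 minus that of Col-0, was called positive for 4986 genes (24.9%) and negative for 5464 (27.3%). Among the 2107 genes higher in Col-0 it was called positive for 274 and negative for 1012, and for 821 it was not called. Of the morning genes 4 interactions were positive and 3 negative among 13, and of the evening genes 1 was positive and 2 were negative among 13. Evening genes were higher in 12 of 13 cases in 35S:RPS4, as in Col-0. GRP7 had one of the negative interactions, with a log2FC of 2.12 ± 0.30 in 35S:RPS4 (interaction -3.55 ± 0.42, adjusted p = 1.23e-06). The CO and FT rises were not called in 35S:RPS4 (a log2FC of -0.40 ± 0.57 and a log2FC of 0.83 ± 0.51), with interactions of -4.17 ± 0.80, adjusted p = 1.97e-04 for CO and -4.82 ± 0.73, adjusted p = 1.77e-05 for FT. PORB had 11.6 to 12.7 CPM in 35S:RPS4 at 8 h, against 1223 to 1585 CPM in Col-0 at 8 h, with an interaction of -6.31 ± 0.27, adjusted p = 2.49e-11. Heat chaperone genes had a median of -1.19 in 35S:RPS4, and 16 of 25 interactions were positive and 2 negative. HSP90.1 had a log2FC of 1.36 ± 0.30 in 35S:RPS4 (interaction 8.59 ± 0.48, adjusted p = 2.90e-10). In the photosynthesis list all 26 genes were lower in 35S:RPS4, and all 26 interactions were negative. Of the jasmonate genes 15 of 25 interactions were positive and none negative, with the 0 h spread of Col-0 entering each of them. The naming rule took the largest interactions only among genes called in Col-0 between 8 h and 0 h. Negative ones included those of MIR167d, a microRNA gene (-12.15 ± 1.12, adjusted p = 1.88e-07), PDLP3 (-11.09 ± 0.63, adjusted p = 3.10e-10) and TPPH, a trehalose phosphatase (-9.48 ± 1.08, adjusted p = 1.82e-06). MIR167d and TPPH were at 0 counts in all 35S:RPS4 libraries at 8 h and PDLP3 at 0 to 0.0448 CPM, so these fitted values depend on the prior count and are no measure of size. Of cold genes 3 interactions were positive and 9 negative, among them CBF3 (-3.81 ± 0.53, adjusted p = 6.64e-06).

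**Figure D5:**
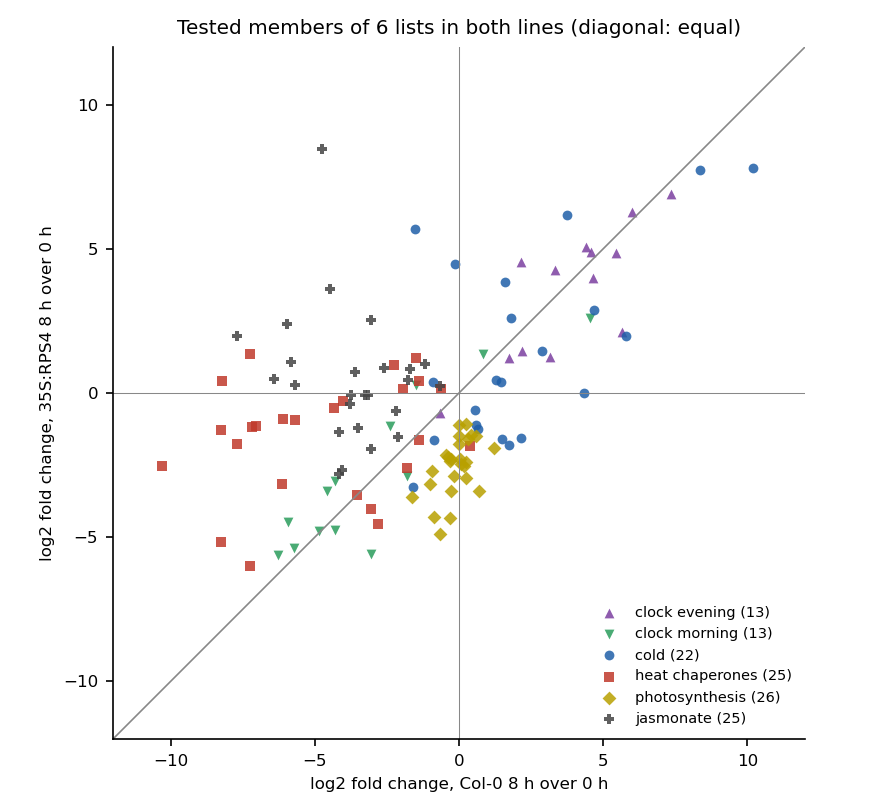
Log2FC at 8 h over 0 h in 35S:RPS4 (y axis) and Col-0 (x axis) of the tested members of 6 lists, 1 symbol a list, with the diagonal where both lines would be equal. Clock genes lie on the same side of 0 in both lines in most cases, photosynthesis genes lie near 0 in Col-0 and below 0 in 35S:RPS4, and heat chaperone and jasmonate genes lie mostly left of 0 in Col-0 and above the diagonal.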

How the data were processed

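RNA from Arabidopsis leaves was sequenced as paired ends after poly(A) selection and rRNA depletion. Per the labels and methods, the authors checked reads with FastQC 0.11.2, aligned them to TAIR10 with TopHat2 2.0.10 and counted them per gene with HTSeq, whose version and strand setting are not given in the sources used here. The deposited values are raw counts of 32678 genes in 18 libraries. Counts in genes ran from 23876651 to 36291942. Read pairs that fell in no gene, 48.5% to 49.2% of a library, were left out of library sizes and tests.

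Genes with low counts were removed with filterByExpr, which left 20023. All 18 libraries were fitted with edgeR 4.0.16 (quasi-likelihood test, TMM scaling, 1 mean per group), and p-values were adjusted over all genes tested. CPM are TMM-scaled. DESeq2 1.42.0 and limma voom 3.58.1 (R 4.3.3), other scalings and filters, fewer libraries, a replicate block and leaving out each library were alternatives. On simulated data edgeR recovered 74% of 3-fold and 93% of 8-fold changes between Col-0 at 8 h and 0 h (20023 genes simulated, 19575 tested). Only 200 genes were changed there, none with very low counts, and no library was made to stand apart. The shares need not carry over to genes near the floor or to lists that a single library moves. Promoters and annotation came from RefSeq (TAIR10.1), which held 31912 of the genes.

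Named genes were chosen by a rule. It took the 12 largest rises and 12 largest falls among called genes with a symbol, a mean of at least 10 CPM in the higher group and no overlap between the groups. It took the 4 called members with the largest change of each list (8 for clock, cold and heat lists), or the 2 most abundant where none was called. RPS4 was added, with the 5 largest changes in each direction between 8 h and 4 h and of the interaction by the same filters. These changes were taken only among genes called in Col-0 between 8 h and 0 h. The members and the 32 gene lists were chosen with earlier results of these data known. Of 487 list members, 15 had counts too low to test: HSFA7B, HSFB1, HSP21, ATHSP22.0, XTR7, GH3.1, MAH1, SHN1, DFR, UF3GT, PDF1, GL1, AP1, AP3 and SAG12.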

Additional observations from a re-analysis of the deposited data

Results flagged for a closer look

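The response to 8 h at 19 °C had opposite signs in 35S:RPS4 and Col-0 for 21 of the named genes. All of them were called in both lines, and their interaction (log2FC of 35S:RPS4 minus that of Col-0) was called by edgeR's quasi-likelihood test. The interaction was called for 101 of the 150 named genes in all, and for 10450 of all 20023 genes tested. Of all 2107 genes called higher in Col-0, 427 were called lower in 35S:RPS4. Of all 2368 called lower in Col-0, 371 were called higher in 35S:RPS4. Some named genes were chosen for a large interaction, so the counts of named genes follow in part from the naming rule.

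Genes that were lower in 35S:RPS4 and higher in Col-0 numbered 7. Their interactions were those of KCS8 (-10.06, from -4.28 in 35S:RPS4 and 5.78 in Col-0), GA3OX1 (-10.03, from -7.09 in 35S:RPS4 and 2.94 in Col-0), PIN7 (-7.97, from -6.11 in 35S:RPS4 and 1.86 in Col-0), LHCB1.2 (-3.12, from -1.89 in 35S:RPS4 and 1.23 in Col-0), GER3 (-11.27, from -6.35 in 35S:RPS4 and 4.93 in Col-0), MIR167d (-12.15, from -8.10 in 35S:RPS4 and 4.05 in Col-0) and PDLP3 (-11.09, from -9.22 in 35S:RPS4 and 1.87 in Col-0). MIR167d and GA3OX1 were at 0 counts in all 35S:RPS4 libraries at 8 h, and KCS8 and PDLP3 reached at most 0.0845 and 0.0448 CPM there, so their values depend on the prior count and give a direction only.

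Genes that were higher in 35S:RPS4 and lower in Col-0 numbered 14. Their interactions were those of CDF2 (3.09, from 1.32 in 35S:RPS4 and -1.78 in Col-0), HSP90.1 (8.59, from 1.36 in 35S:RPS4 and -7.23 in Col-0), ERDJ3A (4.72, from 2.36 in 35S:RPS4 and -2.37 in Col-0), BZIP28 (3.26, from 2.16 in 35S:RPS4 and -1.10 in Col-0), CYP71A13 (4.69, from 1.88 in 35S:RPS4 and -2.81 in Col-0), GRX480 (10.27, from 7.19 in 35S:RPS4 and -3.08 in Col-0), RBOHD (3.89, from 2.03 in 35S:RPS4 and -1.86 in Col-0), PEPR1 (3.07, from 1.25 in 35S:RPS4 and -1.81 in Col-0), WRKY46 (9.14, from 7.67 in 35S:RPS4 and -1.47 in Col-0), ERF1 (9.80, from 3.26 in 35S:RPS4 and -6.55 in Col-0), ERF1A (7.64, from 4.98 in 35S:RPS4 and -2.66 in Col-0), SAG13 (8.24, from 4.83 in 35S:RPS4 and -3.41 in Col-0), TAT3 (13.22, from 8.47 in 35S:RPS4 and -4.75 in Col-0) and AOC3 (9.97, from 5.24 in 35S:RPS4 and -4.73 in Col-0). The Col-0 calls of GRX480, ERF1, ERF1A and AOC3 ended when single libraries were left out. ERF1 was at 0 counts in Col-0 at 8 h, so its value gives a direction only.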

How the results depend on the processing

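The count of genes called between 8 h and 0 h in Col-0 stayed within 1.5 times under every alternative. It was 2407 higher and 2063 lower with scaling by library total, 2261 and 2523 with DESeq2, 2193 and 2312 with limma voom, and 1903 and 1809 with only the 6 libraries. With 1 library left out it ran from 1897 to 2103 higher and from 2018 to 2467 lower. For 8 h against 4 h the ranges were 648 to 933 and 777 to 1228, for 4 h against 0 h 628 to 819 and 642 to 1174, in 35S:RPS4 5186 to 5225 and 5635 to 5893, and for the interaction 4705 to 5007 and 5216 to 5473. Of the 145 named genes called, 124 kept the call with each library left out. Among named genes that were not called, 2 changed sign: SEOR1 (0.046 without Col-0 0 h replicate 1, the values with 1 library left out running from -0.584 to 0.046) and FDH (0.032 without the 2 libraries that stood apart). ERF1 had 0.000 with replicate 1 as the only 0 h library, with no counts on either side. For SEOR1 and FDH the cause was not tested. Replicate numbers did not pair the libraries, since same-numbered 8 h and 0 h libraries had correlations of 0.171, -0.072 and -0.139. A replicate block gave 2096 higher and 2368 lower. Depth limits genes near 3 counts, which is 0.0971 to 0.11 CPM.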
